A study of Homo sapiens with 6 samples.

Results

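MicroRNA precursor genes of Kasumi-1 cells were described here: genes annotated as microRNAs (symbol beginning with MIR and not ending in HG) that reached 1 FPKM or more in 3 or more of the 6 libraries. FPKM is the number of fragments scaled to the length of the gene and to the size of the library. Of 434 microRNA genes in the deposited table, 77 met the rule and 357 did not. Among those 357, 66 stood at 0 in all libraries and 291 had some reads. The 77 members were chosen by their levels in these same libraries, so the levels are a description. Of the members, 76 reached 1 FPKM in at least 1 library of each group, and MIR3685 reached it only in the treated libraries. A gene that enters that way had to differ, so no count or median over the members is given as support for a change.

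A microRNA is cut from a longer primary transcript. The nuclear enzyme DROSHA with its partner DGCR8 releases a hairpin, XPO5 exports it, DICER1 trims it to a short duplex, and an Argonaute protein loads 1 strand, whose seed (bases 2 to 8) pairs with target messages. Most human microRNA hairpins lie in introns of host genes, and some have transcripts of their own, often named for them with the ending HG. Mature microRNAs are too short for libraries of the kind used here, so every value below is of longer RNA read over a precursor gene, not of mature microRNA.

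Kasumi-1 is an established human acute myeloid leukaemia line with the t(8;21) fusion of RUNX1 and RUNX1T1. The 3 control samples were cultured with control and the 3 I1 samples with the agent I1 at 0.125 µM, each for 48 h. Labels do not say what I1 is, what the control held or whether replicates were separate cultures, so p-values speak only of the spread among these 6 samples. All samples are of 1 cell line. The deposited table is named for other lines and a different agent, and its values are taken as I1 and control only from its column names, which match the sample titles. Library totals recovered from the FPKM steps ran from 16391000 to 18204000 reads. All 10 markers of t(8;21) myeloblasts averaged at least 1 FPKM. Of the other markers in the table, 2 of 3 for B cells, 1 of 4 for T cells and 1 of 3 for epithelial cells did. The epithelial list summed to 23.2 to 27.6 FPKM in control. For erythroid cells, fibroblasts and hepatocytes, 0 of 4, 0 of 2 and 0 of 1 did. Control replicate 1 stood apart on the first principal component (52.1% of the variance), at -43.8 against -2.90 to 19.8 for the others. In bulk RNA, fewer cells of a type and less RNA per cell cannot be told apart.

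The hairpins of the members on which the comparison turns are given first, from RefSeq (GRCh38.p14), 5′ to 3′. Capitals mark the mature microRNAs that were found there. For MIR186 only the 3p one was found, so its other arm in small letters is not shown to yield none. MIR3685 and MIR3682 were the members past the threshold in at least 1 fit, MIR186 and MIR589 held the largest other rise and fall in estimate among members whose groups did not overlap, and MIR1244-2 is shown because its whole hairpin also occurs in a highly expressed message.
MIR3685: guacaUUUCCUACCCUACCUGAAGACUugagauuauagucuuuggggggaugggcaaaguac
MIR3682: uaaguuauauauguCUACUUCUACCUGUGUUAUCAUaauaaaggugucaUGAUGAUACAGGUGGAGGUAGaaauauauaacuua
MIR186: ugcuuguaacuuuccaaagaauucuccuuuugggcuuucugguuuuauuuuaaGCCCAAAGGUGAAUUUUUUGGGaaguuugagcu
MIR589: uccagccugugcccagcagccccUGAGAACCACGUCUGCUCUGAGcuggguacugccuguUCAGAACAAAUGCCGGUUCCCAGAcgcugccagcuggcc
MIR1244-2: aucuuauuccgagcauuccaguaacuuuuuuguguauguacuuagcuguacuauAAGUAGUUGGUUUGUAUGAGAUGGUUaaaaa

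Sequences were looked up for 73 members, and 67 had a mature one in RefSeq, which gave 97 mature microRNAs with 94 different seeds. Among the sequences found, 3 seeds were shared by a pair of members. No mature sequence was found for MIR1244-3, whose hairpin equals that of MIR1244-2, so that pair is not counted. For MIR221, as for MIR186, only the 3p sequence was found. The sequences of the 3 pairs are shown so that the related members can be told from each other, with the seed in capitals.
MIR221: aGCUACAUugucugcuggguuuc
MIR222: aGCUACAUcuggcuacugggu
MIRLET7D: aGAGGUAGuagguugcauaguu
MIR98: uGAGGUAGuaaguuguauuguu
MIR3153: gGGGAAAGcgaguagggacauuu
MIR6739: uGGGAAAGagaaagaacaagua

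The members were short and thinly covered. They spanned 53 to 119 bases (median 83), and 1 read was worth 0.462 to 1.15 FPKM. The mean per library was 0.5 to 93 reads, with a median of 4.33; 40 members averaged under 5 reads and 16 at least 10. Only 35 of the 77 held at least 1 FPKM in all 6 libraries. The members nearest the level of the rule, by the third highest of their 6 values, were MIR4326 (1.02 FPKM) and MIR210 (1.03 FPKM), and the microRNA genes just outside it were MIR553 (0.885 FPKM) and MIR4685 (0.872 FPKM).

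I1 and control were compared by limma on log2(FPKM + 1) over the 11913 genes that met the same level. A gene was called where its Benjamini-Hochberg adjusted p over all of them was under 0.05 and its log2 fold change was 1 or more in either direction; the scale understates changes of low genes. MIR3685 was the only member past the threshold, against 0.0336% of all tested genes (4 genes, all higher). Since it met the level only through the I1 libraries, its test depended on its being high there, and nothing is read from this share; with no filter on low values its adjusted p was 0.306. With the replicate number as a block, MIR3682 was called too (adjusted p = 0.0268), against 0.0504% of all tested genes. At an unadjusted p under 0.05 stood 15 members, or 19.5%, against 9.57% of all tested genes. Of these, 11 were higher (6.8% of all tested genes were) and 4 lower (2.77% were). With the block these were 19 members, and the share over all tested genes was 27.1%. The groups did not overlap for 10 members higher in I1 (13.0% of the 77, against 12.9% of all tested genes) and for 1 lower (1.30%, against 8.74%). Overlap was judged on FPKM. For MIR3682, MIR4258 and MIR659 the highest control and the lowest I1 library each had 3 reads, so only scaling parted them. The same held for MIR331, at 2 reads each, and for MIR573, at 16 reads in control against 15 in I1. A size of 1 on the log2 scale was reached by 5 members upward and 5 downward, against 0.546% and 0.0923% of all tested genes. MIR4766, named after its values were seen, was among the 5 upward, and its groups overlapped. It held 0, 2.28 and 0.744 FPKM in control and 4.82, 5.43 and 0.792 FPKM in I1. The members with these sizes averaged at most 12.2 reads a library.

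**Figure D1:**
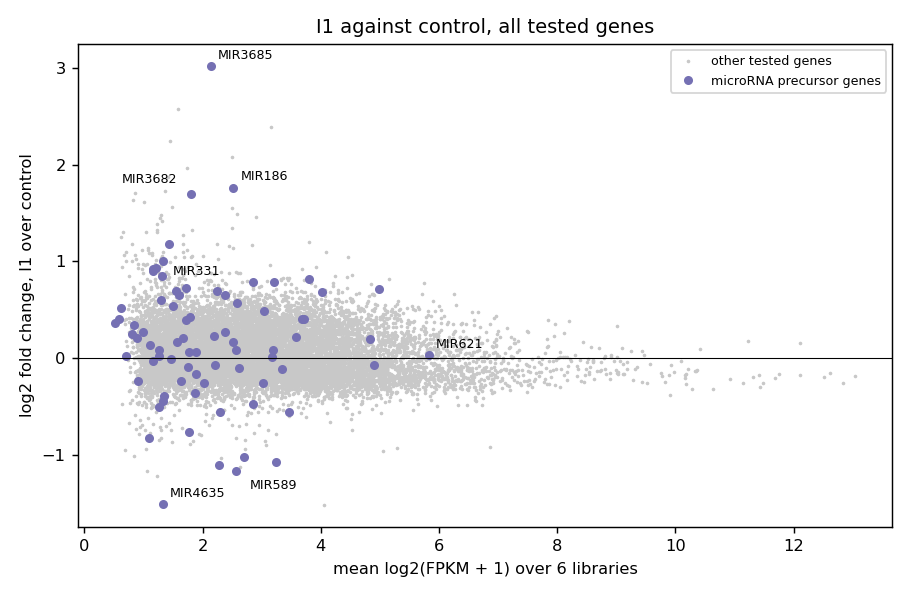
Log2 fold change of I1 over control (y axis) against the mean log2(FPKM + 1) over 6 libraries (x axis) for 11913 tested genes, with 77 microRNA precursor genes as large points. The members lie mostly at the low end of the level axis and reach from -1.51 to 3.02, and MIR3685 stands highest.

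MIR3685 (ENSG00000265917) lies at chr12:95309923-95309984 on the plus strand (hg38), outside annotated genes. Its level was 0, 0.931 and 0.912 FPKM in control replicates 1 to 3 and 8.86, 10.5 and 16.5 FPKM in I1 replicates 1 to 3. All I1 libraries were above all control libraries. These levels stood for 0, 1 and 1 reads in control and 9, 11 and 17 in I1, and 0 reads in control replicate 1 allowed up to 2.66 FPKM (3 reads). The log2 fold change was 3.02 (SE 0.307, adjusted p = 0.0353), and the adjusted p ran from 0.00799 to 0.472 over the alternative settings. It stood at 0.0508 after a correction for GC content, and at 0.0684 to 0.290 with 1 library left out.

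MIR331, 1409 bases before MIR3685 on the same strand (chr12:95308420-95308513), was chosen after its values were seen as the nearest member. It held 0.584, 1.23 and 0.601 FPKM in control and 1.30, 3.14 and 3.84 FPKM in I1, from 1, 2 and 1 reads against 2, 5 and 6. In FPKM the groups did not overlap, but the highest control and the lowest I1 library both had 2 reads. The test was not passed (log2 fold change 1.01, SE 0.291, adjusted p = 0.467). The nearest gene before both on that strand, VEZT, which encodes the junction protein vezatin, ended 5630 bases before MIR331. VEZT stood at 5.82 ± 1.00 FPKM in control and 7.54 ± 0.457 in I1 (SD, n = 3; log2 fold change 0.34, adjusted p = 0.467). The neighbouring precursor and VEZT thus had estimates of the same sign as MIR3685, and neither passed.

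MIR3682 (chr2:53849122-53849205, minus strand) sits in an intron of GPR75-ASB3, a readthrough transcript. It held 0, 2.06 and 1.35 FPKM in control and 2.18, 7.73 and 7.88 FPKM in I1, from 0, 3 and 2 against 3, 11 and 11 reads. Every I1 library was above every control library in FPKM. However, I1 replicate 1 and control replicate 2 both had 3 reads, so only scaling parted them. The log2 fold change was 1.70 (SE 0.505, adjusted p = 0.467), and with the block and the GC correction together it was 1.08 (adjusted p = 0.200). Its host averaged 0.0322 FPKM in control and 0.110 FPKM in I1, too low to be tested.

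MIR186 (chr1:71067631-71067716, minus strand) lies in an intron of ZRANB2, a zinc finger gene with a role in splicing. Its levels were 0, 6.04 and 3.29 FPKM in control and 7.80, 7.55 and 14.7 FPKM in I1, from 0, 9 and 5 against 11, 11 and 21 reads. The groups did not overlap, and control replicate 1 was lowest. The log2 fold change of MIR186 was 1.76 (SE 0.643, adjusted p = 0.467) and 1.32 after the GC correction. ZRANB2 ran from 10.4 to 18.6 FPKM in control and from 23.0 to 24.8 FPKM in I1, with control replicate 1 again lowest. Its log2 fold change was 0.67 (SE 0.195, adjusted p = 0.467) and 0.22 after the GC correction.

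Other members higher in I1 without overlap had smaller estimates. MIR573, in an intron of the spliceosomal helicase gene DHX15, held 4.44, 5.25 and 9.14 FPKM in control and 9.24, 10.1 and 14.6 FPKM in I1. Its highest control library had 16 reads and its lowest I1 library 15, so the gap came from scaling. The ratio of its summed reads was 1.81 (exact 95% interval 1.16 to 2.87, which covers counting error only). MIR1254-1, in the transcriptional coactivator gene CCAR1, held 13.6, 33.3 and 29.1 FPKM in control and 37.7, 35.3 and 46.5 FPKM in I1, so the gap between the groups was small and control replicate 1 was far below the rest. MIR3942, in DPH6, a gene of diphthamide synthesis, had 1.01, 0.529 and 1.04 FPKM in control and 3.36, 2.17 and 1.66 FPKM in I1, at no more than 6 reads in any library. Their log2 fold changes were 0.79, 0.72 and 0.85, and none passed (adjusted p = 0.467 each); that of MIR3942 was 0.40 after the GC correction. MIR6739, MIR4258 and MIR659, named after their values were seen, complete the 10 with log2 fold changes of 0.79, 0.65 and 0.90; that of MIR6739 was 0.42 after the GC correction.

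MIR570, in the noncoding gene MUC20-OT1, was higher in I1 in 3 of 3 pairs although its groups overlapped. It held 6.80, 11.9 and 10.5 FPKM in control and 11.3, 23.7 and 19.8 FPKM in I1. The ratio of its summed reads was 1.90 (exact 95% interval 1.33 to 2.74, which covers counting error only). Its log2 fold change was 0.82 (SE 0.285, adjusted p = 0.467, and 0.0829 with the block). After the GC correction it was 0.41, with an adjusted p of 0.289 in the fit that also held the block. MUC20-OT1 itself averaged 1.59 ± 0.384 FPKM in control and 1.98 ± 0.278 FPKM in I1 (SD, n = 3).

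MIR589 (chr7:5495819-5495917, minus strand), in an intron of the F-box gene FBXL18, was the only member lower in I1 without overlap. It held 5.55, 9.91 and 8.57 FPKM in control and 3.70, 3.58 and 1.82 FPKM in I1, from 10, 17 and 15 against 6, 6 and 3 reads. The ratio of its summed reads was 0.380 (exact 95% interval 0.196 to 0.700, which covers counting error only). The log2 fold change was -1.16 (SE 0.256, adjusted p = 0.467), which missed the threshold. FBXL18 stood at 3.66 ± 0.304 FPKM in control and 3.52 ± 0.326 FPKM in I1 (SD, n = 3).

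The other members with log2 fold changes of -1 or below had groups that overlapped and were picked out after their values were seen. MIR4635, in an intron of the cotransporter gene SLC12A7, had the lowest estimate, -1.51 (SE 0.450, adjusted p = 0.467), from 5, 3 and 6 reads in control and 0, 3 and 0 in I1. MIR4442, which overlaps an exon of TOP2B, had 18, 12 and 16 reads in control and 1, 17 and 9 in I1. MIR3186 and MIR4740 both lie antisense within BAHCC1. MIR3186 had 15, 15 and 3 reads in control and 8, 1 and 3 in I1; MIR4740 had 14, 11 and 5 against 3, 8 and 2. In each of these the spread within 1 group reached into the other.

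**Figure D2:**
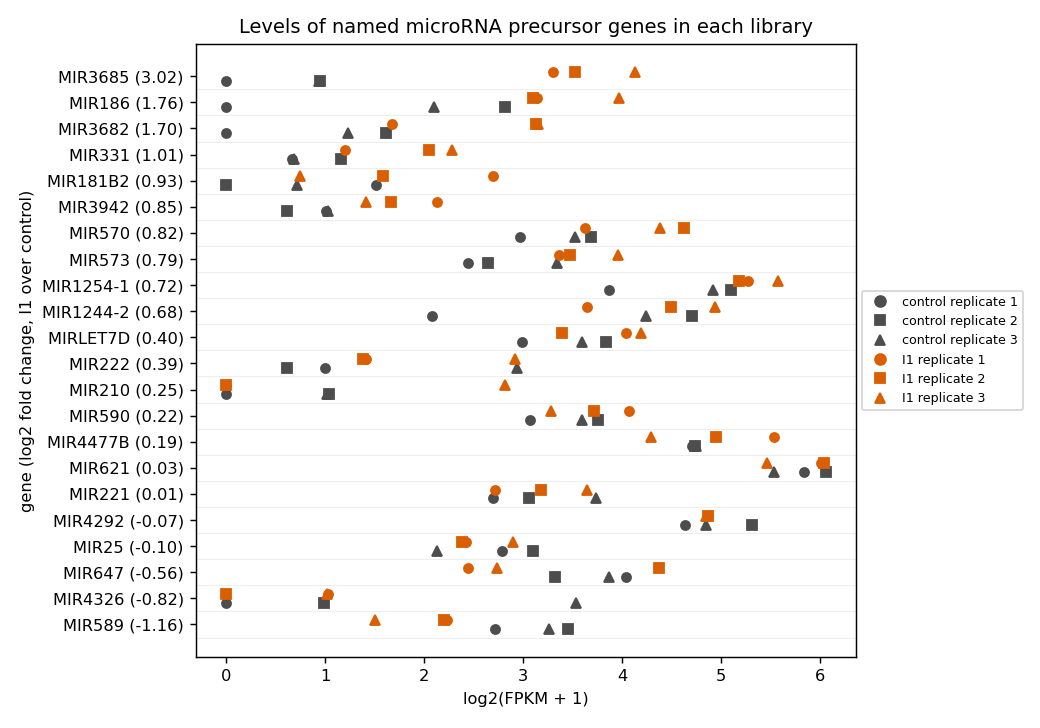
Level of each named microRNA precursor gene in each library as log2(FPKM + 1) (x axis), with genes ordered from the highest to the lowest log2 fold change (in brackets); shape gives the replicate number and colour the group. MIR3685, MIR186 and MIR589 show groups apart and MIR3682 only narrowly, while MIR621, MIR221 and MIR4292 show both groups over the same range.

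The member with the most reads was MIR621 (chr13:40810766-40810861), 655 bases past the end of SLC25A15, which encodes a mitochondrial ornithine carrier. It held 56.1, 65.5 and 45.4 FPKM in control and 63.6, 64.5 and 43.2 FPKM in I1, and the groups covered the same range (log2 fold change 0.03, SE 0.198). SLC25A15 stood at 10.3 ± 0.851 FPKM in control and 10.8 ± 1.87 FPKM in I1 (SD, n = 3). MIR1254-1, given above, followed in level at a mean of 32.6 FPKM, then MIR4292 at 29.1 and MIR4477B at 28.4. MIR4292, in the Rab-like gene RABL6, ran from 23.8 to 38.8 FPKM in control and from 27.8 to 28.2 FPKM in I1. MIR4477B ran from 25.1 to 25.8 FPKM in control and from 18.6 to 45.2 FPKM in I1, so the spread was almost wholly in I1. The order among MIR1254-1, MIR4292 and MIR4477B is not larger than the spread of their libraries. MIR647, in UCKL1, and MIR590, in the translation factor gene EIF4H, averaged 11.3 FPKM each with overlapping groups.

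Some members cannot be told from copies elsewhere. Of the 77, 11 shared at least 1 word of 25 bases with transcripts of other genes and 66 shared none. All words of MIR1244-2 and of MIR1244-3, whose hairpins are the same sequence, occur in the transcripts of PTMA, the prothymosin alpha gene, at 525.5 FPKM. MIR1244-2 held 3.23, 25.1 and 18.0 FPKM in control and 11.5, 21.5 and 29.7 FPKM in I1, and MIR1244-3 held 1.29, 2.72 and 2.00 against 1.44, 4.17 and 2.12 FPKM. Replicate 1 was lowest in both groups for each. All words of MIR4477B occur in MIR4477A (0.124 FPKM), and those of MIR3687-1 in MIR3687-2. MIR1285-1 shared words with 439 other genes and MIR1254-1 with 17. The labels do not say how reads that fit several places were counted, so levels of these members are uncertain.

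Of 57 microRNA genes known from blood cells, 15 were in the table and 5 were members: MIRLET7D, MIR221, MIR222, MIR25 and MIR181B2. The other 42 were not analysed here. The 10 that were listed without being members reached at most 3.33 FPKM in any library. None of the 5 members passed the test. MIRLET7D, of the family that LIN28 proteins restrain, held 6.95, 13.3 and 11.0 FPKM in control and 15.4, 9.50 and 17.3 FPKM in I1, and the groups overlapped. MIR98, which shares its seed, had 0, 3 and 5 reads in control and 2, 0 and 3 in I1. MIR25, in the replication helicase gene MCM7, ran from 3.37 to 7.56 FPKM in control and from 4.21 to 6.45 in I1. MCM7 itself averaged 125 ± 11.7 FPKM and 112 ± 10.1 FPKM (SD, n = 3). MIR181B2, of a family known from lymphoid and myeloid differentiation, held 1.85, 0 and 0.635 FPKM in control and 5.48, 1.99 and 0.676 FPKM in I1 (log2 fold change 0.93, SE 0.525, adjusted p = 0.468). Its host transcript MIR181A2HG averaged 0.744 ± 0.363 and 1.36 ± 0.372 FPKM (SD, n = 3; log2 fold change 0.44, adjusted p = 0.467; 0.17 after the GC correction).

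MIR221 and MIR222, known repressors of the receptor gene KIT and the cell cycle inhibitor gene CDKN1B, lie 748 bases apart on the minus strand of chromosome X within MIR222HG and share a seed. MIR221 held 5.49, 7.34 and 12.3 FPKM in control and 5.55, 8.05 and 11.5 FPKM in I1, and MIR222 held 0.999, 0.525 and 6.68 against 1.66, 1.61 and 6.56 FPKM. In both groups replicate 3 was highest for both genes, and the values of the groups covered the same range (log2 fold changes 0.01, SE 0.307, and 0.39, SE 0.638). MIR222HG did not share that order, at 3.20, 4.93 and 3.57 FPKM in control and 5.02, 3.39 and 4.06 FPKM in I1.

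MIR210, the microRNA best known for its rise under low oxygen, lies in MIR210HG on chromosome 11. It had 0, 2 and 2 reads in control and 0, 0 and 11 in I1, or 0, 1.05 and 1.03 against 0, 0 and 6.02 FPKM; a count of 0 allowed up to 1.50 FPKM in control replicate 1 and up to 1.66 and 1.61 FPKM in I1 replicates 1 and 2. MIR210HG held 0.473, 0.298 and 5.97 FPKM in control and 0.605, 0.381 and 6.45 FPKM in I1. Replicate 3 of MIR210HG was 15.5 times the mean of the other control libraries and 13.1 times that of the other I1 libraries, and the groups covered the same range. Over all members, 10 of 77 (13.0%) had replicate 3 highest in both groups, against 13.7% of all tested genes.

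**Figure D3:**
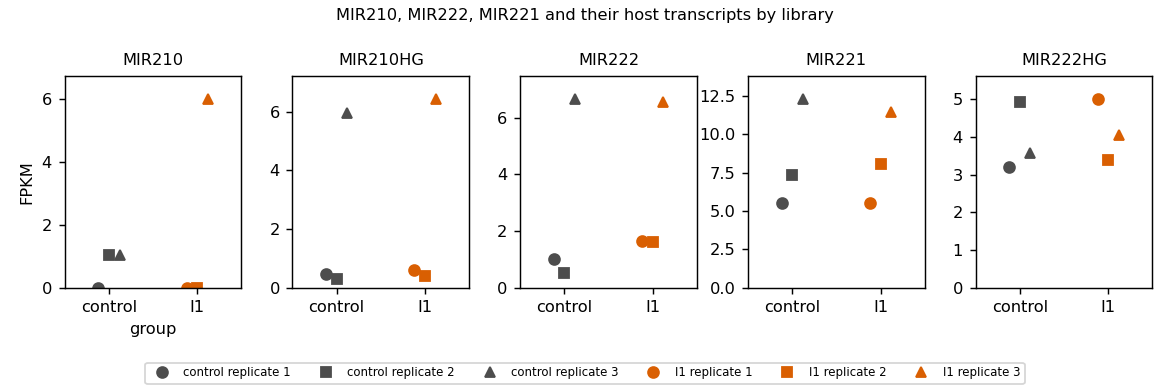
FPKM (y axis, a scale for each gene) of MIR210, MIR210HG, MIR222, MIR221 and MIR222HG in each library by group; shape gives the replicate number. Replicate 3 is the highest library of its group for MIR210HG, MIR222 and MIR221 in both groups, and for MIR210 in I1, but not for MIR222HG.

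By the GENCODE 29 annotation, 59 members lay within an intron of a gene on the same strand, 9 outside genes, 8 within a gene on the other strand only and 1 (MIR4442) over an exon. Similar shares of the listed microRNA genes of each place were members, with 18.0% of 327, 17.0% of 53, 17.8% of 45 and 11.1% of 9. The median level was 3.01 FPKM for the intronic members, 5.20 for those outside genes and 3.71 for the antisense ones. The labels do not say whether counting used strand; without it, reads of the antisense members cannot be told apart from those of the opposite gene. The median log2 fold changes were 0.22, 0.13 and 0.07, and 40 of 59, 7 of 9 and 4 of 8 were above 0, against 54.5% of all tested genes.

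The 59 intronic members had 57 host genes, 41 protein-coding and 16 not. Of the hosts, 45 were tested by limma and 0 were called. An unadjusted p under 0.05 was reached by 3 (6.67%), against 9.57% of all tested genes. These were ZRANB2, FTX and SNAPC5, the last pair named after their values were seen. FTX, a noncoding gene of the X inactivation centre that holds MIR421, averaged 0.806 ± 0.255 FPKM in control and 1.50 ± 0.309 FPKM in I1 (SD, n = 3; log2 fold change 0.47, adjusted p = 0.467), and its log2 fold change was 0.11 after the GC correction. SNAPC5, a subunit gene of the snRNA activating complex that holds MIR4512, averaged 6.21 ± 0.342 and 4.74 ± 0.614 FPKM (SD, n = 3; log2 fold change -0.33, adjusted p = 0.467). The host estimates ran from -0.46 to 0.67 with a median of -0.03, and 21 of 45 were above 0, against 54.5% of all tested genes.

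Member and host could be set side by side for 47 members. The member's log2 fold change was larger in size than its host's in 34 of them, with medians in size of 0.39 for these members and 0.18 for the tested hosts. Member and host estimates had a Spearman correlation of 0.438 over these 47, which share libraries and differ in depth. Levels of member and host had one of 0.0789. Among all 59 intronic members, 22 stood at a higher FPKM than their host, MIR589 among them. Among the 47 with a tested host, 11 did. Members had to meet the level of the rule and hosts did not, so the count over all 59 follows in part from the rule. A single read at a member was already worth 0.462 to 1.15 FPKM.

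**Figure D4:**
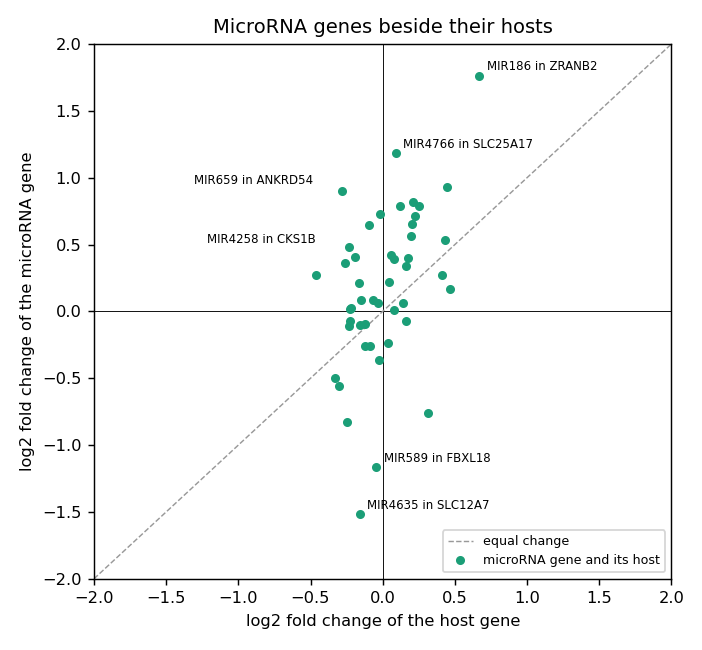
Log2 fold change of I1 over control of each microRNA precursor gene (y axis) against that of its host gene (x axis) for 47 members with a tested host; the dashed line marks equal change. The host estimates stay between -0.46 and 0.67, while those of the members spread further, from MIR4635 at -1.51 to MIR186 at 1.76.

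Estimates of the members moved with base composition, as those of all tested genes did. GC content of the members ran from 29.8% to 78.8%, with a median of 51.8% (48.7% over all tested genes). Its Spearman correlation with the log2 fold change was -0.431 over the 77 members and -0.763 over 11899 tested genes. The difference between control replicate 1 and the other controls correlated with GC content at 0.273 and 0.677. The 39 members at or under the median GC had a median log2 fold change of 0.39, and the 38 above it of -0.02; after a GC correction the medians were 0.12 and 0.17. The part of GC content in the single results was not tested beyond that correction.

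**Figure D5:**
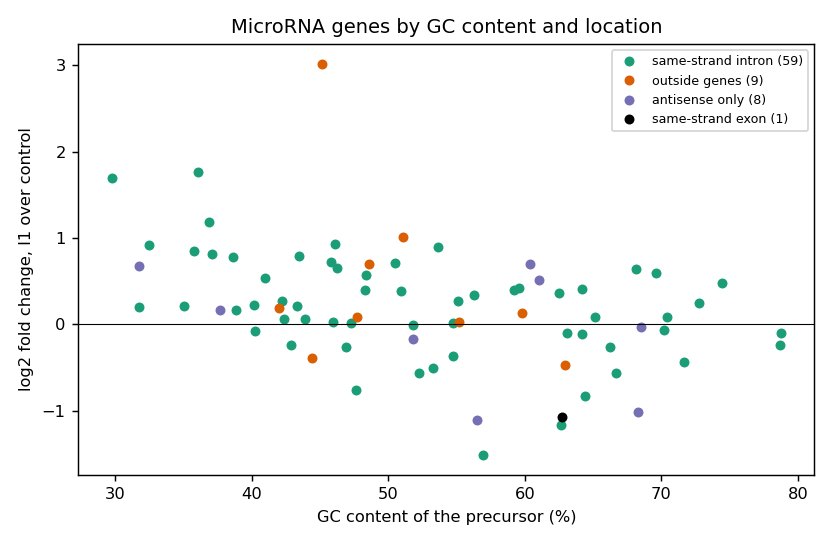
Log2 fold change of I1 over control (y axis) against GC content of the precursor gene in percent (x axis) for 77 members, coloured by place in the annotation. Estimates at 30 to 40% GC lie mostly above 0, with medians of 0.39 for members at or under the median GC and -0.02 for those above it.

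Over all members, 51 of 77 (66.2%) had an estimate above 0, against 54.5% of all tested genes, and the median was 0.19 against 0.03. By same-numbered pairs 1 to 3 the member medians were 0.41, 0.022 and 0.071, against 0.087, 0.020 and 0.0011 over all tested genes. Leaving out I1 replicate 3 gave a median of -0.01, leaving out control replicate 1 gave 0.11, and leaving out control replicate 3 or I1 replicate 2 gave 0.30 and 0.40. Reads at the members made up 0.00311%, 0.00387% and 0.00387% of the library totals in control and 0.00421%, 0.00421% and 0.00439% in I1, from 567 to 729 reads a library. The log2 ratio of the mean shares was 0.24, and 0.14 without control replicate 1, the lowest library. Over the 66 members with no shared word it was 0.16.

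The transcripts named as microRNA hosts (ending HG) were examined after their values were seen. Of 49 in the table, 16 were tested and 0 called. Of the 16, 2 had an unadjusted p under 0.05, against 9.57% of all tested genes. MIR155HG, the host of a microRNA of activated blood cells, held 1.79, 2.63 and 2.12 FPKM in control and 5.07, 3.36 and 5.45 FPKM in I1, without overlap. Its log2 fold change was 0.81 (SE 0.189, adjusted p = 0.467) and 0.42 after the GC correction. MIR17HG, the host of a growth-promoting cluster, held 1.92, 2.48 and 1.81 against 3.02, 2.89 and 2.69 FPKM, with 0.34 (SE 0.142, adjusted p = 0.467) and -0.05 after the correction. MIR223HG, of the myeloid microRNA, held 21.1, 17.7 and 17.6 FPKM in control and 27.8, 17.5 and 24.3 FPKM in I1, and the groups overlapped.

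Of 29 genes of microRNA processing and action, 28 were tested by limma and 0 called. An unadjusted p under 0.05 was reached by 2 (7.14%), against 9.57% of all tested genes. With the replicate block the smallest adjusted p among them was 0.140. LIN28A was too low to be tested. The median log2 fold change was 0.06, with 18 above and 10 below 0, and 0.00 after the GC correction. Of all tested genes, 54.5% were above 0 before that correction. Of the core enzymes, DROSHA stood at 15.1 ± 1.17 FPKM in control and 15.2 ± 0.995 FPKM in I1, and its partner DGCR8 at 9.17 ± 0.158 and 8.78 ± 0.745 (SD, n = 3 each). DICER1 averaged 9.91 ± 3.66 and 14.3 ± 1.65 FPKM, and its partner TARBP2 8.83 ± 0.323 and 7.63 ± 0.608 FPKM (SD, n = 3), both without overlap and neither past the test. Their log2 fold changes were 0.55 and -0.19, and 0.25 and -0.03 after the GC correction. The exporter XPO5 (23.8 ± 1.95 and 22.8 ± 2.18 FPKM) and the Argonaute AGO2 (22.9 ± 6.32 and 28.1 ± 1.18 FPKM; SD, n = 3) covered overlapping ranges. DDX17, a helicase of the DROSHA complex, averaged 84.1 ± 10.4 FPKM in control and 110 ± 4.96 FPKM in I1 (SD, n = 3; log2 fold change 0.39, SE 0.130, adjusted p = 0.467). LIN28B, which blocks maturation of the family of MIRLET7D, averaged 6.03 ± 1.99 and 8.83 ± 0.571 FPKM (SD, n = 3; log2 fold change 0.53, SE 0.217, adjusted p = 0.467), and 0.23 after the GC correction. The most abundant of the list were HNRNPA1 (505 ± 61.2 and 496 ± 85.1 FPKM), RAN (126 ± 6.99 and 118 ± 9.53 FPKM) and KHSRP (111 ± 3.64 and 103 ± 4.10 FPKM; SD, n = 3 each), with log2 fold changes of -0.03, -0.09 and -0.10; those of HNRNPA1 and KHSRP changed sign under other settings.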

How the data were processed

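The authors deposited 1 table of FPKM values for 29810 genes in 6 libraries, made with the TruSeq Stranded mRNA kit from Trizol RNA per the labels' protocols. The build hg38 and the tools HTSeq, Cufflinks, HISAT2 and Trimmomatic are named per the submitters' processing notes; the sources used here give no versions, roles, annotation or strand use. Although the table's name is for other cell lines and a different agent, its columns match the 6 titles; columns not used numbered 0. Gene models came from GENCODE 29. FPKM steps gave whole reads (within 0.05) for all 77 members. Tests used limma 3.58.1 (R 4.3.3) with an intensity trend on log2(FPKM + 1), without covariates. Same-numbered replicates deviated together (correlations 0.476, 0.457 and 0.412, against -0.348 to -0.0987 otherwise). The samples thus look paired by number, which the titles do not state, so a block was an alternative. Printed p-values are of the fit without the block unless stated. Other alternatives were pseudocounts, filters, scalings, a GC correction and leaving out each library. Members and lists were chosen with earlier results of these data known. Genes named were members called in either fit, the 8 with most reads, the 5 largest rises and falls among members without overlap at 3 or more reads, blood microRNAs, those nearest the level of the rule, their hosts, and of the processing list the called and the 8 highest; others are marked. The read share is given without a test.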

Additional observations from a re-analysis of the deposited data

How the results depend on the processing

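The count of members past the threshold was 1 and became 0 with a pseudocount of 0.1 or 0.5, no filter on low values, a filter of a mean of at least 5 FPKM, the GC correction, or members with at least 1 FPKM in all 6 libraries (35 genes), and ranged from 0 to 0 when any 1 library was left out. With the replicate block it was 2, and the block changed no other call among members, hosts or processing genes. Over all tested genes, 4 were called without the block and 6 with it. The counts of hosts and of processing genes past the threshold were 0 under each alternative run for them; the share of reads kept its sign. The member lost was MIR3685, which is no member where all 6 libraries must reach 1 FPKM. Of 40 single genes, 20 turned their sign under some alternative, none with an estimate over 0.82 in size, and none of these was called.
With the GC correction, alone or with the replicate block, log2 fold changes were -0.0207 for CCAR1, -0.0351 for DDX5, -0.12 for DHX15, 0.15 for FBXL18, 0.0874 for KHSRP, -0.0712 for MIR221, -0.32 for MIR222HG, 0.10 for MIR25, 0.21 for MIR4292, -0.0580 for MIR4477B, -0.25 for MIR590 and -0.19 for SRSF3. With median-of-ratios scaling they were -0.0415 for MIR221 and -0.0301 for MIR621; with quantile normalization 0.0536 for HNRNPA1, -0.0679 for MIR221 and -0.0012 for MIR222HG; with a pseudocount of 0.1, -0.36 for MIR210. With 1 library left out the estimates ran from -0.10 to 0.0070 for FBXL18, -0.17 to 0.0635 for HNRNPA1, -0.12 to 1.20 for MIR1244-2, -0.685 to 0.72 for MIR210, -0.22 to 0.30 for MIR221, -0.12 to 1.10 for MIR222, -0.0399 to 0.22 for MIR222HG, -0.37 to 0.11 for MIR25, -0.22 to 0.12 for MIR4292, -1.58 to 0.19 for MIR4326, -0.11 to 0.51 for MIR4477B, -0.11 to 0.21 for MIR621, -0.17 to 0.0423 for SND1, -0.0304 to 0.18 for SRSF3 and -0.16 to 0.0174 for XRN2. Apart from the settings' own construction, the cause was not tested. Members had a median of 4.33 reads a library, which limits the precision of single estimates.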

Other observations

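Genes other than MIR210 and MIR210HG that are known to rise under low oxygen were looked up after the values of MIR210HG were seen. Of 10 such genes, 8 had replicate 3 highest in both groups, against 13.7% of all tested genes. ADM, ANKRD37, CA9 and EGLN3 were too low to be tested, so these shares are of unlike sets. CA9, counted among the 8, reached at most 0.169 FPKM. BNIP3, a mitophagy receptor gene, held 6.48, 8.13 and 32.6 FPKM in control and 9.44, 8.43 and 33.4 FPKM in I1. KDM3A, a histone demethylase gene, held 6.39, 8.14 and 18.8 against 9.57, 7.75 and 20.2 FPKM. ADM, the adrenomedullin gene, held 0.121, 0.149 and 3.12 against 0.404, 0.0434 and 3.30 FPKM. VEGFA did not share the order, and EGLN3 stood at 0 in all libraries. A search of the whole table took genes with at least 1 FPKM in replicate 3 of both groups. Of these, 15 stood there at 5 times or more the other libraries of the group. They included MIR210HG, ADM, ANGPTL4, PFKFB4, a glycolysis regulator, and SLC6A8, the creatine transporter. The others included PPFIA4, OSGIN1, MIR4440 and small noncoding RNA genes such as Y_RNA and RNU6-130P. RNU6-130P held 0, 0 and 1.10 FPKM in control and 0, 0 and 1.17 FPKM in I1. Where the other libraries read 0, as here, any value of at least 1 FPKM met the rule of 5 times. What the 15 have in common was not tested. PFKFB4 held 3.14, 1.52 and 26.7 FPKM in control and 3.83, 1.57 and 23.9 FPKM in I1. Both groups share this order, so it does not part I1 from control.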
